A study of Homo sapiens with 3 samples.

Results

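The EGF family genes were followed on 3 Agilent expression arrays of A549, a line of human lung adenocarcinoma cells. They comprise 6 ligand genes, AREG, EREG, HBEGF, TGFA, BTC and EGF, and 4 receptor genes, EGFR, ERBB2, ERBB3 and ERBB4. The genes were chosen by name, as all non-control probes whose design accession maps to one of these symbols, which gave 17 of 58191 probes and 10 of 22435 named genes. RNA came from cells kept for 48 h with 0.1% DMSO (control), with 60 μg/mL cordycepin, an adenosine analog (3′-deoxyadenosine), or with 100 μg/mL cordyceps. The labels give no DMSO content for the treated cultures and do not say what preparation the cordyceps was. They list fetal bovine serum (10%), zinc sulfate (16.7 μM), troglitazone (10 μM) and nicotinamide (10 mM) in the medium of all 3 cultures. By the labels the control cells thus had these additives as well. The study's methods name serum and antibiotics in the medium but none of the other additives, and which holds could not be settled. There was 1 array per condition (n = 1), each from 1 culture of a single line. Each difference below is therefore one between 2 arrays, without a replicate error or a p-value, and both treatments were set against the same control array.

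EGF family ligands are made as membrane-bound precursors that are cut at the cell surface by metalloproteases, called sheddases, and the freed ligand binds receptors on the same or neighboring cells. Ligand binding joins the receptors in pairs and switches on their tyrosine kinases, which signal through RAS, RAF, MEK and ERK and through PI3K and AKT. AREG (amphiregulin), TGFA and EGF bind EGFR, whereas EREG (epiregulin), HBEGF and BTC (betacellulin) bind EGFR and ERBB4. ERBB2 has no known ligand of its own and acts as a partner, and ERBB3, which has a weak kinase and binds neuregulins, passes signals mainly to PI3K. In lung adenocarcinoma the family is best known for the oncogenic mutations of EGFR. An array measures transcripts, so neither shed ligand nor receptor activity was measured here, and fewer cells that carry a transcript cannot be told apart from less of it per cell.

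AREG and EREG were higher on both treated arrays than on the control array, and EGFR was higher and ERBB3 lower with cordycepin. None of the other 6 genes was called in either comparison with control. No ratio could be given for ERBB4, nor for HBEGF and EGF with cordyceps. A gene was called when the brightest of its probes differed at least 2-fold between arrays after scaling, with at least 1 of the arrays well above background by the flag of the scanner software. With cordycepin, 3 of the 9 genes detected on at least 1 of the arrays compared were called higher, where 5.95% of 15917 detected genes were, and 1 was called lower, where 3.57% were (9.52% either way). With cordyceps, 2 of 9 were called higher, where 4.19% of 15602 genes were, and 0 of 9 were called lower, where 3.15% were (7.35% either way). AREG and EREG were called higher with both treatments, as were 117 of 15394 genes (0.76%), a count that rests on the shared control array. The study had listed AREG and EREG among its upregulated genes from these same arrays, so their rise with cordycepin is not independent evidence. The genes are too few for a share to describe the family as a whole.

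AREG and EREG lie next to each other on chromosome 4, between EPGN and BTC, which also encode EGF family ligands. EGFR lies on chromosome 7. The promoters of the genes called higher are shown because AREG and EREG were high on the same arrays while EGFR was high with cordycepin alone. The sequences are those of RefSeq on GRCh38.p14, + strand, the 250 bases before each gene's start, which for EGFR is the first of 2 promoters listed. The intervals are chr4:74444886-74445135 for AREG, chr4:74364895-74365144 for EREG and chr7:55018767-55019016 for EGFR. Capitals mark the cAMP response element TGACGTCA and its core TGACG, the TATA box TATAAA and the GC box GGGCGG, read on both strands.
AREG: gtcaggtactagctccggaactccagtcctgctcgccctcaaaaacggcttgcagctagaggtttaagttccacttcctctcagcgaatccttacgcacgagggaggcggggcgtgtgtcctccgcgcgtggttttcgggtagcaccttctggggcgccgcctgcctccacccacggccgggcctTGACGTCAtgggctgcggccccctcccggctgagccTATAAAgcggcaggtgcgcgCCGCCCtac
EREG: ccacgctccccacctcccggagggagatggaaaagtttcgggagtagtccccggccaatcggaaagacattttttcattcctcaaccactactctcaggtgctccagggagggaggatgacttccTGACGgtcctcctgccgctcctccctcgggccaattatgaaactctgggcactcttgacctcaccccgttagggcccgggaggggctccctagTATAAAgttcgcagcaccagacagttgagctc
EGFR: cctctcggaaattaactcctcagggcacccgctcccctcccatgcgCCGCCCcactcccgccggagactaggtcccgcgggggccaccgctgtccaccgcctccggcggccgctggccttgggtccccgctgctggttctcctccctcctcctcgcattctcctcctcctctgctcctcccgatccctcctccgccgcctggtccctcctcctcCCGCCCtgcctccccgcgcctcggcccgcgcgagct

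A TATAAA stretch began 29 bases before the AREG start and 32 bases before the EREG start, and 10.7% of 35116 promoters of the same length held one. The first EGFR promoter held none, whereas the second held 2. AREG held the whole element TGACGTCA, 65 bases before its start, as did 1.65% of all promoters, and was alone in this among the 11 promoters found for 9 of the genes (ERBB3 is named only). Its core TGACG, which overlaps the whole element, was found in AREG, EREG and TGFA and in 21.2% of all promoters. The GC box was found in AREG, EGFR, ERBB4, HBEGF and TGFA and in 42.6% of all promoters. Of the other motifs searched, the AP-1 motif TGANTCA was found in EGF, ERBB2 and the second EGFR promoter (6.57% of all promoters), the ETS motif CCGGAA in AREG, ERBB2, ERBB4 and TGFA (14.5%), and the TEAD motif GGAATG in EGF, EREG and the second EGFR promoter (11.9%). None of the 11 held the EGR motif GCGGGGGCG (4.72%), the NF-kB motif (0.527%) or the SRF motif (0.0313%). These matches describe letters in these windows, not factor binding.

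The arrays held 60901 non-control spots each, with 0 saturated, and between 24505 and 28494 probes were well above background, fewest on the cordyceps array. The dimmest probe that passed this flag had a signal of 18.6 in control cells, 21.8 with cordycepin and 34.5 with cordyceps, so dim transcripts were measured least well with cordyceps. One corner of the cordyceps array was disturbed. The local background was flagged as outlying at 11.2% of the spots there, compared with 0% on the other arrays, and it held 57.1% of the probes called higher with cordyceps although it holds 18.6% of the probes. Of the 17 EGF family probes, 2 lie in that corner, the brighter AREG probe and the EGF probe. All 7 markers of epithelial and A549 identity, among them KRT8, KRT18 and CDH1, were well above background on all arrays. Of these, EPCAM, an epithelial adhesion molecule, was 2.85-fold lower with cordycepin (log2 ratio -1.51), and the other 6 were not called. KRT8, KRT18, KRT19 and CDH1 gave log2 ratios of 0.62, 0.35, 0.28 and 0.07 with cordycepin, and AKR1B10 and AKR1C1 gave -0.52 and -0.68. With cordyceps KRT19, an epithelial keratin, was 2.37-fold lower (log2 ratio -1.25), the only marker of the list called. By their brightest probes all 7 lay below control with cordyceps, with log2 ratios from -1.25 to -0.30 and a median of -0.52. The median of all genes measured on both arrays was -0.11. For KRT8 the brightest probe gave -0.71 with cordyceps, whereas its 2 other detected probes gave 0.34 and 0.43. Whether these markers bear on the ratios of the EGF family was not tested. Of 5 markers of other cell types, COL1A2, PDGFRB and PECAM1 were not well above background on any array, whereas COL1A1, a fibroblast collagen (signals 337, 239 and 208 on the control, cordycepin and cordyceps arrays), and PTPRC, a leukocyte phosphatase (99.5, 71.8 and 72.9), were. Neither of these was called in either comparison with control, and the COL1A1 probe lies in the disturbed corner. Different probes of one gene gave log2 ratios that spread with an SD of 0.35 for cordycepin over control and 0.34 for cordyceps over control. It was estimated from the 2 brightest probes of 3356 genes, and this technical spread is the yardstick used below. It compares probes on the same arrays, detected on all of them, so it holds no variation between cultures or hybridizations.

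**Figure D1:**
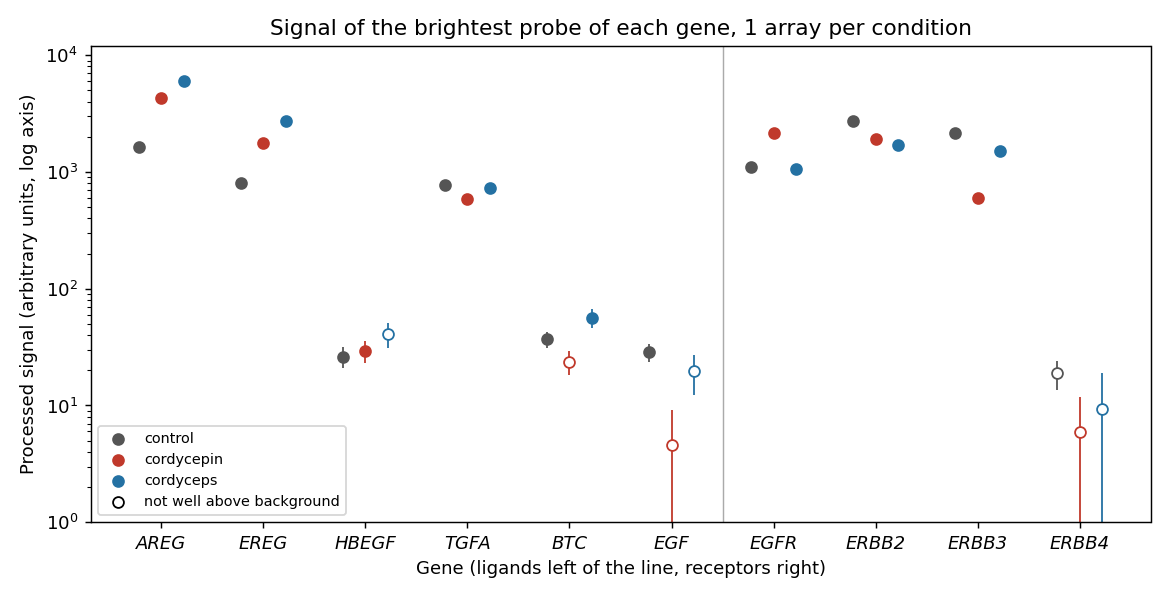
Processed signal (arbitrary units, log axis) of the brightest probe of each EGF family gene on the control, cordycepin and cordyceps arrays, 1 point per array. Bars show the error that the scanner software gives for the spot (the mean over spots for ERBB2) and are cut at the lower edge of the plot; open points are not well above background. The signals are not scaled between arrays. In them AREG and EREG rise from control through cordycepin to cordyceps, EGFR is high with cordycepin alone, and ERBB3 is lowest with cordycepin. After scaling, these probes of AREG and EREG differed between cordycepin and cordyceps by log2 ratios of -0.26 and -0.41, within the spread between probes (SD 0.42). The other AREG probe, not shown, gave -0.67, beyond that spread. With median scaling the probes shown gave -0.80 and -0.95.

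AREG encodes amphiregulin, a growth factor of epithelial repair that is also released in excess by many carcinomas. Its brighter probe gave a processed signal of 1627 ± 163 on the control array, 4340.1 ± 434 with cordycepin and 6040.1 ± 604 with cordyceps, where ± is the error the scanner software gives for a single spot. The other probe gave 614 ± 61.6, 1234.0 ± 124 and 2271 ± 227. Both probes were thus lowest in control cells and highest with cordyceps. After scaling, AREG was 3.09-fold higher with cordycepin by the brighter probe and 2.33-fold by the other, log2 ratios of 1.63 and 1.22. With cordyceps it was 3.71-fold higher by the brighter probe, and both probes gave a log2 ratio of 1.89. The brighter probe lies in the disturbed corner and the other does not, and the rise with cordyceps was as large outside the corner. The block of the array that holds the brighter probe, 1 of 64, had a median log2 ratio of -0.01 with cordyceps over 362 probes. Among all genes with a ratio, 2.28% were at least as far above control as AREG with cordycepin and 1.95% with cordyceps.

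EREG encodes epiregulin, a ligand that activates EGFR and ERBB4 receptor pairs with low affinity but for a long time. Its only probe gave a signal of 796 ± 79.8 on the control array, 1773 ± 177 with cordycepin and 2739.6 ± 274 with cordyceps. The order of the arrays was that of AREG. EREG was 2.58-fold higher with cordycepin and 3.44-fold higher with cordyceps, log2 ratios of 1.37 and 1.78, both several times the spread between probes. The blocks around this probe had median log2 ratios of 0.03 and -0.09 over 363 probes, and the probe is outside the corner. With 1 probe, EREG has no second measurement on these arrays.

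The remaining ligands showed no called difference from control. TGFA, which encodes transforming growth factor alpha, gave signals of 777 ± 77.9, 588 ± 59.1 and 734 ± 73.9 on the control, cordycepin and cordyceps arrays by its brighter probe. Its log2 ratios of -0.19 and -0.08 lay within the spread between probes, and its other probe was not well above background on any array. HBEGF, a heparin-binding ligand, was near the limit of detection, with signals of 26.3 ± 5.30, 29.5 ± 6.40 and 41.2 ± 10.0, the last not well above background. Its log2 ratio with cordycepin was 0.38, about the size of the spread between probes, and no ratio was taken with cordyceps.

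BTC, the neighbor of AREG on chromosome 4, gave signals of 37.1 ± 5.81 in control cells, 23.8 ± 5.59 with cordycepin, not well above background, and 56.5 ± 9.92 with cordyceps. By these signals, after scaling, BTC was 1.35-fold lower with cordycepin and 1.52-fold higher with cordyceps, neither of which reached the call. EGF gave 28.5 ± 4.83 in control cells and was not well above background with cordycepin (4.57 ± 4.59) or with cordyceps (19.7 ± 7.51). It was at least 1.13-fold lower with cordycepin, and no ratio could be given with cordyceps because the control signal lies under the lowest signal measurable on that array. The probe is in the disturbed corner.

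**Figure D2:**
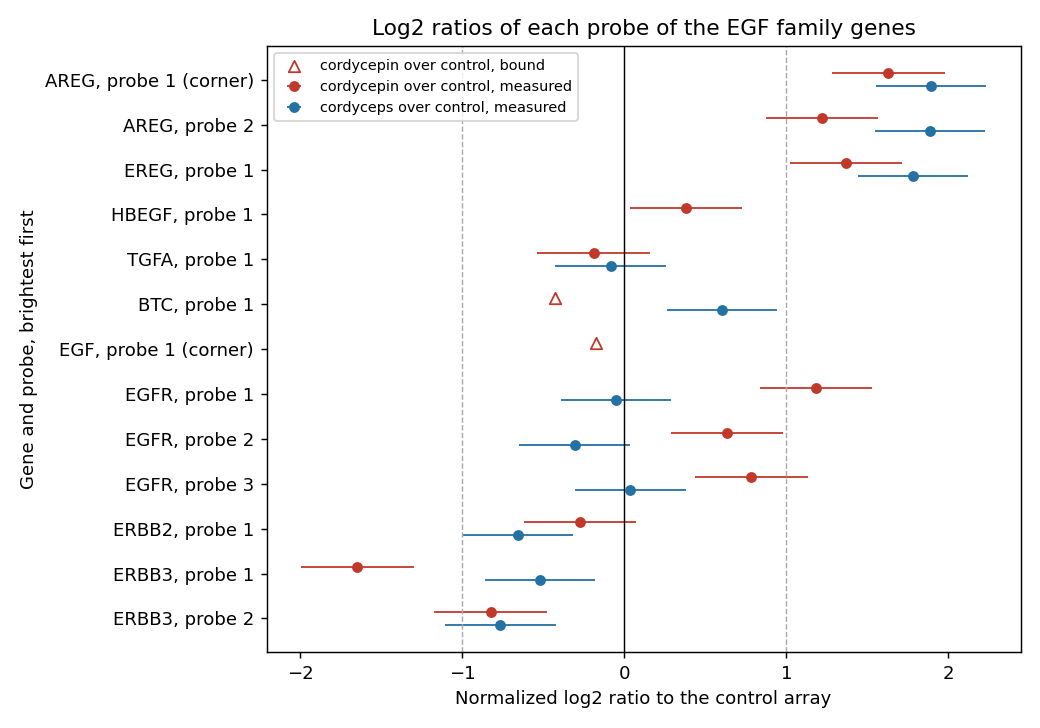
Normalized log2 ratio to the control array of each EGF family probe with a ratio, for cordycepin and cordyceps, with bars of 1 SD for the spread between probes of a gene (0.35 and 0.34). Triangles, labeled as bounds, are ratios from a treated array that was not well above background. For BTC this is the ratio of the signals and not a bound. Probes are numbered from the brightest, and dashed lines mark a 2-fold difference. Both AREG probes and the EREG probe lie beyond the line on the right with both treatments.

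EGFR, the receptor shared by all these ligands, was 2.27-fold higher with cordycepin by its brightest probe, a log2 ratio of 1.18. The signal of this probe, designed on the full-length transcript, was 1096 ± 110 in control cells, 2146 ± 215 with cordycepin and 1059 ± 106 with cordyceps. The cordycepin array stood apart, and the control and cordyceps arrays differed by a log2 ratio of -0.05. Both other probes were designed on shorter transcripts that encode truncated receptors, and whether they separate these from the full-length transcript was not tested. The first of them gave signals of 294 ± 29.7, 393 ± 39.6 and 238 ± 25.0, and the second gave 56.9 ± 7.38, 84.4 ± 10.0 and 58.4 ± 10.3. Their log2 ratios with cordycepin, 0.63 and 0.78, ran in the same direction but under 2-fold, so the call of EGFR rests on the brightest probe. With cordyceps they were -0.31 and 0.04.

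ERBB3 was lower with cordycepin, by different amounts in its probes. Control cells had a signal of 2167 ± 217 by its brightest probe, cordycepin 597 ± 60.0 and cordyceps 1513 ± 152. It was 3.13-fold lower with cordycepin, a log2 ratio of -1.65, and 0.83% of all genes were at least as far below control. The second probe, designed on the transcript of a short secreted form, gave 313 ± 31.7, 153 ± 16.3 and 184 ± 20.5. It was 1.77-fold lower with cordycepin, under the call, and the third probe was near background, with signals of 22.3, 13.5 and 17.8, of which only that of control was well above it. With cordyceps the first and second probes gave log2 ratios of -0.52 and -0.76. Both were below control on both treated arrays, but only the brightest set cordycepin apart from cordyceps.

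ERBB2 was the only gene of the family whose probe was printed more than once, with 10 spots on each array. Its spots averaged a signal of 2706 in control cells, 1932 with cordycepin and 1718 with cordyceps. They ran from 2566 to 2867, from 1802 to 1998 and from 1678 to 1742, so that the unscaled signals of the 3 arrays did not overlap. The SD between spots on the log2 scale was 0.053, 0.043 and 0.019, a precision of the spot and not of the culture. After scaling the log2 ratio was -0.27 with cordycepin, within the spread between probes, and -0.66 with cordyceps, or 1.58-fold lower, beyond that spread and short of 2-fold. ERBB4 was not well above background on any array by either of its probes, with signals from 3.90 to 18.8, and no ratio was taken.

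**Figure D3:**
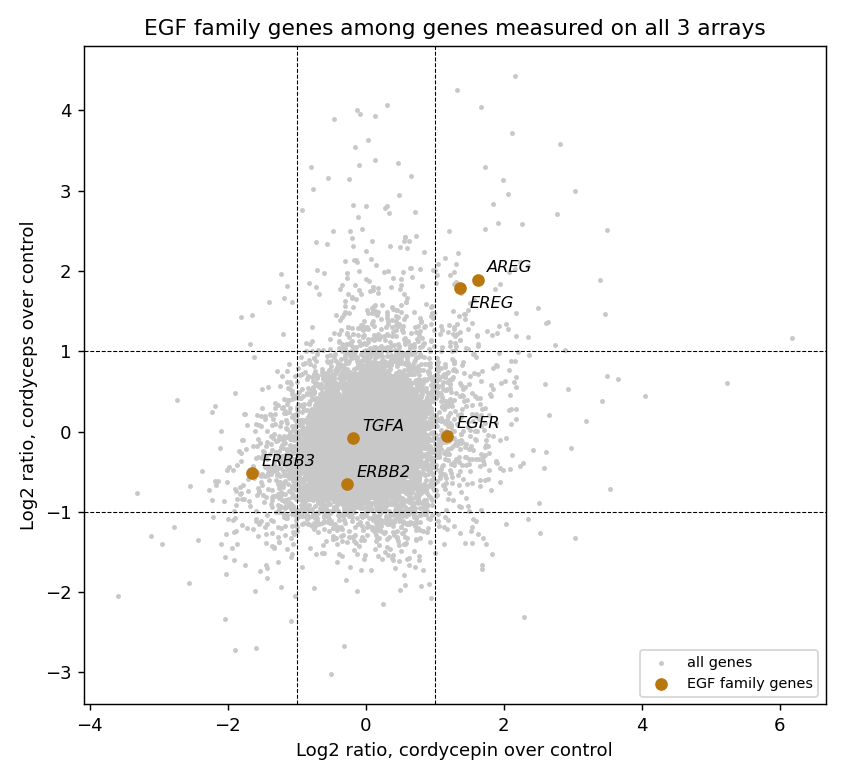
Log2 ratio of cordycepin over control (x axis) against that of cordyceps over control (y axis) for 13770 genes well above background on all 3 arrays (gray), by the brightest probe, with the EGF family genes among them in color. Both axes share the control array, and dashed lines mark 2-fold; AREG and EREG lie beyond both lines, EGFR and ERBB3 beyond those for cordycepin.

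The treatments were also set against each other, with the limit that cordycepin and cordyceps differ in dose and in nature and that each is 1 array. EGFR was 2.35-fold higher with cordycepin than with cordyceps by its brightest probe and 1.92-fold and 1.68-fold by the others. Of 15482 genes detected on either array, 7.75% were called higher with cordycepin in this comparison and 5.57% lower (13.3% either way). With median scaling the log2 ratio of EGFR between the treatments was 0.70, under 2-fold. ERBB3 was 2.18-fold lower with cordycepin by its brightest probe, but its second probe gave a log2 ratio of -0.06, and the median over its probes gave -0.59. BTC was 2.04-fold lower with cordycepin, from dim signals, of which that with cordycepin was not well above background. With normexp background correction this log2 ratio of -1.03 became -0.21, under 2-fold. AREG was 1.20-fold lower with cordycepin than with cordyceps by the brighter probe and 1.59-fold by the other, and EREG was 1.33-fold lower. The spread between probes in this comparison was 0.42 on the log2 scale. The AREG and EREG differences between the treatments, log2 ratios of -0.26 and -0.41 by the brightest probes, did not exceed it, while the other AREG probe, at -0.67, did. Median scaling took the former to -0.80 and -0.95, beyond that spread.

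The genes most like ERBB3 were sought because its log2 ratio with cordycepin, -1.65, was the farthest from 0 among the family genes detected on all arrays. AREG, at 1.63, was no nearer to 0 beyond the spread between probes, and with quantile normalization AREG came first, at 1.70 against -1.59. Among 11248 genes detected on all 3 arrays outside the corner, the 5 nearest to its pair of ratios (-1.65 with cordycepin, -0.52 with cordyceps) were GPC6, PDE7B, MIR31HG, PATJ and LINC01000. Their distances in log2 units ran from 0.040 for GPC6 to 0.070 for LINC01000, far inside the spread between probes. With 3 arrays many genes lie as near within that spread. The likeness is to the brightest ERBB3 probe alone, as the second ERBB3 probe gave -0.82 with cordycepin and -0.76 with cordyceps.

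Further genes of the pathway were taken from 5 lists, to be read against the shares of all genes called, 5.95% higher and 3.57% lower with cordycepin and 4.19% and 3.15% with cordyceps. Of the other ligands of the ErbB receptors, NRG1, NRG2 and NRG4 were detected, while EPGN, the neighbor of EREG, and NRG3 were not well above background on any array. NRG1, a neuregulin that binds ERBB3 and ERBB4, had signals of 1519 in control cells, 2958 with cordycepin and 1968 with cordyceps. It was 2.26-fold higher with cordycepin, and a second probe gave a log2 ratio of 0.99. NRG2 fell from 243 in control cells to 104 with cordycepin, 2.02-fold lower, and gave 158 with cordyceps. NRG4 had log2 ratios of 0.31 and -0.92. With cordyceps, 0 of the 3 detected ligands were called.

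Among 9 detected sheddases and their regulators, ADAM12 was the only one called, and it was lower with both treatments. Its signals were 355 in control cells, 112 with cordycepin and 112 with cordyceps, 2.72-fold and 3.17-fold lower. The brightest ADAM12 probe lies in the disturbed corner, and a second one gave log2 ratios of -1.20 and -1.80. ADAM9, not called at -0.87 and -0.85, was called lower with cordycepin when median scaling was used. ADAM17, the main sheddase of AREG, EREG, TGFA and HBEGF, gave log2 ratios of 0.02 and 0.50, and ADAM10, which cuts EGF and BTC, gave 0.37 and -0.53. The brightest ADAM10 probe also lies in the disturbed corner, and a second one gave 0.05 and -0.51. The median log2 ratio of this list was -0.16 with cordycepin and -0.25 with cordyceps, where the median of all genes measured on both arrays was -0.05 and -0.11.

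The adaptors and effectors carry the receptor signal into the cell. Of 23 detected genes, among them the adaptors GRB2 and SHC1, 0 were called with cordycepin and 0 with cordyceps, where 9.52% and 7.35% of all genes were called in either direction. Their log2 ratios ran from -0.65 to 0.50 with cordycepin, with a median of -0.05, and from -0.87 to 0.42 with cordyceps, with a median of -0.25. Of 18 detected feedback inhibitors, which include the Sprouty and Spred proteins, the LRIG proteins, the CBL ubiquitin ligases and ERRFI1, again 0 were called with either treatment. With median scaling, PTPRJ and SPRED2 were called lower with cordycepin, and with no scaling SPRED2 was. Their medians were -0.15 and -0.14. ERRFI1, an inhibitor of the EGFR kinase, gave log2 ratios of -0.46 and -0.06.

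Of 16 ERK output genes, whose transcripts are known to follow ERK activity and of which SPRY2 and SPRY4 are also in the list of inhibitors, 2 were called higher and 1 lower with cordycepin. FOSL1, a transcription factor of the AP-1 family, had signals of 219 in control cells, 502 with cordycepin and 220 with cordyceps, 2.66-fold higher with cordycepin. DUSP5, a nuclear phosphatase of ERK, had signals of 3372, 6922 and 3397 and was 2.38-fold higher with cordycepin, a call that was lost with median scaling. FOS, an immediate early gene of the AP-1 family, had signals of 1076, 417 and 509 and was lower with both treatments, 2.22-fold and 2.11-fold. Its call with cordyceps was lost with median scaling, with the percentile over detected probes and with the corner left out. With cordyceps, FOS was the only gene of the list called. FOSL1 and DUSP5 were thus called higher with cordycepin alone, as EGFR was, and not with both treatments, as AREG and EREG were. Most genes called higher with cordycepin (947, or 5.95%) were not called higher with both treatments (117, or 0.76%). A link of FOSL1 and DUSP5 to EGFR was not tested. DUSP6, a cytoplasmic phosphatase of ERK, gave log2 ratios of 0.34 and 0.53, from a probe in the disturbed corner. The median of the list was 0.18 with cordycepin and -0.02 with cordyceps.

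**Figure D4:**
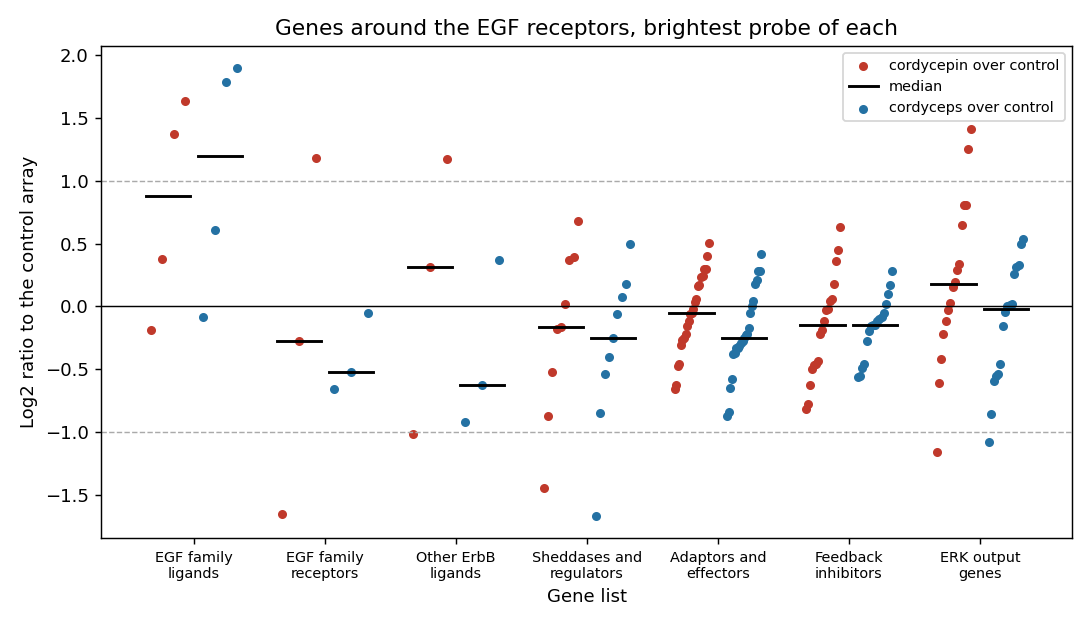
Log2 ratio to the control array of the genes in the EGF family and in 5 pathway lists, by the brightest probe, for genes well above background on both arrays compared. Each point is a gene, black bars are medians and dashed lines mark 2-fold; adaptors, effectors and feedback inhibitors all lie between the dashed lines.

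AREG, EREG, EGFR and ERBB3 kept the direction of their called differences from control under the 12 alternative ways of processing run, while the call of EGFR did not hold in all of them. Over these alternatives the log2 ratio with cordycepin ran from 1.22 to 1.70 for AREG, and EREG was from 2.15-fold to 2.66-fold higher. It ran from -1.91 to -1.23 for ERBB3. With cordyceps it ran from 1.85 to 2.16 for AREG and from 1.73 to 2.05 for EREG. EGFR with cordycepin ran from 0.78 to 1.25 and stayed at 2-fold or more in 9 of the 12. It fell under 2-fold with median scaling (0.92), with no scaling (0.97) and with the median over its probes (0.78). Median scaling moved the median of all genes from -0.05 to -0.32 with cordycepin and from -0.11 to 0.16 with cordyceps. The uncalled ratios of EGFR and TGFA with cordyceps changed sign with median scaling, to 0.22 and 0.19, as did that of ERBB2 between the treatments, to -0.15.

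**Figure D5:**
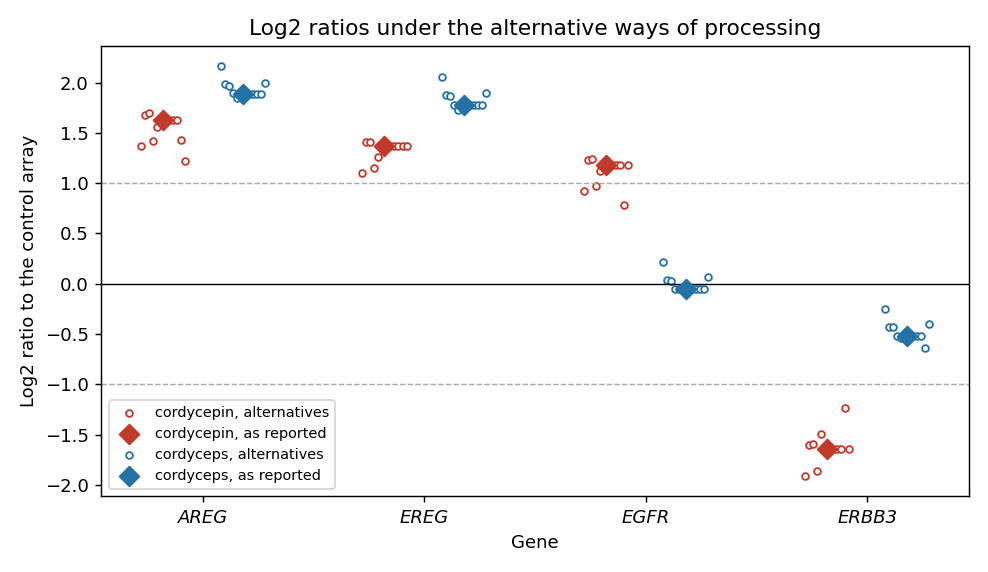
Log2 ratio to the control array of the 4 called genes, as reported (diamonds) and under 12 alternative ways of processing (open circles), for cordycepin and cordyceps. Dashed lines mark 2-fold; AREG and EREG stay above the upper line with both treatments, and some EGFR values with cordycepin lie under it.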

How the data were processed

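RNA was hybridized to 1 array per condition, all on 1 slide. The methods name Cy3 for control and Cy5 for cordycepin RNA, whereas each file holds a single Cy3 channel, so ratios were taken between arrays and what the methods refer to could not be settled. The authors deposited the intensity of each spot from Agilent Feature Extraction 11.5.1.1, background-subtracted and detrended within the array but not scaled between arrays, with flags of 0 or 1 and a value table of the same intensity values. The methods name GeneSpring and state no setting. The design is annotated on GRCh37, and gene names came from RefSeq transcripts of GRCh38.p14 (31097 of 58191 probes). Outlier spots and controls were left out, spots of a probe were averaged, and the log2 signal was reduced by the 75th percentile of its array. Detection needed the flag of a signal well above background on 50% or more of a probe's spots. A gene was represented by the probe brightest over the arrays. Some pairs of arrays had detection on 1 of them only. The ratio was then taken against the other array's own value or its lowest detected signal, whichever was higher. It is a bound where the lowest detected signal was used, as for EGF. Where the array's own value was used, as for BTC, it is the ratio of the signals themselves. The number of arrays limits the precision, and no test was possible.

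All EGF family genes with every probe are named. Of each pathway list, the called genes are named, and the uncalled ones named (such as ADAM10, ADAM17, NRG4, ERRFI1 and DUSP6) were picked after their values were seen. The genes and lists were chosen with earlier results of these data known, and the promoter motifs after the values were seen. Alternatives were median, no and quantile scaling, the percentile over detected probes, normexp (offset 50), 3 rules of detection, outlier spots kept, the value table, the median over probes, thresholds of 1.5-fold and 3-fold, and the corner left out. The calling step was tested on simulated data, which checks the code and gives no error for the calls on these arrays. Python 3.11.15, numpy 2.4.6, pandas 2.3.3, R 4.3.3 and limma 3.58.1 were used.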

Additional observations from a re-analysis of the deposited data

Results flagged for a closer look

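BTC gave log2 ratios of opposite sign with the treatments. They were -0.43 with cordycepin, from a signal not well above background, and 0.60 with cordyceps. The errors given by the scanner software amount to 0.41 and 0.34 for these ratios on the log2 scale. With normexp background correction the ratios were -0.07 and 0.14. Neither reached 2-fold, each rests on 1 dim spot per array, and the difference between the treatments was not tested.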

How the results depend on the processing

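The number of EGF family genes called higher with cordycepin was 3, and it was 2 with median scaling, no scaling or the median over probes, where EGFR was not called, and 1, AREG, at a 3-fold threshold. The number called lower with cordycepin was 1, ERBB3, and became 3 without a detection filter or with a positive and significant signal as detection, when EGF and ERBB4 were added from signals near background. The number lower with cordyceps was 0 and became 1, ERBB2, at a 1.5-fold threshold, where BTC joined AREG and EREG as higher and, of 15602 genes, 1295 were higher and 1954 lower. Of the alternatives for single gene ratios, 255 moved the value by less than the spread between probes and 17 by more, and none turned a called gene to the other direction. Without the corner, AREG was read from its other probe alone, with a log2 ratio of 1.22 with cordycepin. Over all genes, 947 were higher and 569 lower with cordycepin, against 596 and 1179 with median scaling. With cordyceps, 654 were higher and 492 lower, against 962 and 208 with median scaling. Scaling shifts all ratios of an array pair together by construction. The pathway lists and the comparison between treatments were added to the alternatives after the data were seen. NRG1 and NRG2 lie close to 2-fold, and NRG1 was not called with median scaling or no scaling, nor NRG2 with normexp or with the percentile over detected probes. No paired analysis was possible because each condition has 1 array. Depth of signal limits HBEGF, BTC, EGF and ERBB4, which were near background.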
